A study of Mus musculus with 6 samples.

Results

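The genes described here are those of the cytosolic ribosomal proteins, measured as messenger RNA in mouse macrophages (Mφs). They were chosen by name: a protein-coding row whose symbol begins with Rpl or Rps followed by a number, or is Rplp0, Rplp1, Rplp2 or Rpsa, with the kinases of the Rps6k family left out, and with at least 10 counts in at least 3 of the 6 libraries. Of 41549 genes in the deposited table, 83 matched by name and 80 of these passed the count minimum. The small ribosomal subunit accounted for 32 of them and the large subunit for 48. The rule itself used no difference between the groups, though the set was chosen with earlier results of these data known.

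The libraries were made from bone marrow-derived Mφs of adult wild-type mice, grown from marrow with macrophage colony-stimulating factor. The naive cells were transfected with a locked nucleic acid antisense oligonucleotide against 5′tRF-Glu(CTC), a fragment cut from the 5′ end of a glutamate transfer RNA (αGlu), or with a control antisense of the same chemistry (Ctr). All cells of both groups were then exposed to IL-4 and IL-13, which drive the anti-inflammatory M2 state. Each group had 3 libraries, which the study describes as independent experiments. The comparison asked how the M2 transcriptome responded to blockade of the fragment, and the fragment itself was not measured in these libraries, so its loss could not be checked here. The antisense and the stretch it was designed against are shown because they define the groups. They are in DNA letters and in the 5′ to 3′ direction, with no part marked. The line labelled targeted fragment holds the 21 bases listed as the target, and not the whole fragment.
antisense: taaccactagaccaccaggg
targeted fragment: tccctggtggtctagtggtta

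Each ribosome contains a single copy of nearly every ribosomal protein, and the genes for these proteins are among the most abundantly transcribed in any cell. In mammals their messenger RNAs typically begin with a C followed by a stretch of pyrimidines, the 5′ terminal oligopyrimidine (TOP) tract, through which the mTOR pathway controls their translation. Growth signals therefore act on them largely after transcription, whereas the Myc transcription factor and RNA polymerase I set how much of the ribosome is made at the level of transcription. In Mφs the need for ribosomes changes with proliferation and activation.

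Total exon counts ran from 17912831 to 30386653 per library. Among all 11933 genes that passed a low-count filter, αGlu 1 lay outside the range of the 3 Ctr libraries for 57.4% of genes, while αGlu 2 and αGlu 3 did so for 77.0% and 76.5%. The common dispersion of counts was 0.069 with all libraries and 0.0203 without αGlu 1, so the counts of genes called are also given without that library. The 6 macrophage markers were all detected, with summed levels of 11700 to 13300 CPM (read counts scaled to library size) in Ctr and 12500 to 18500 in αGlu, although Cd68 was lower in αGlu 2 and αGlu 3, at 1240 and 1140 CPM, than in Ctr, at 1810 to 2060. The 6 markers of the IL-4 and IL-13 response summed to 2800 to 4510 CPM in Ctr and 4010 to 6930 in αGlu, and its members went opposite ways. Arg1 was at 24.3 to 45.2 CPM in Ctr, 23.5 in αGlu 1, and 1890 and 1790 in αGlu 2 and αGlu 3. Retnla was at 245 to 540 CPM in Ctr, 101 in αGlu 1, and 0.0315 and 0.0367 in αGlu 2 and αGlu 3, and Mgl2 at 66.3 to 87.9 CPM in Ctr and 0.504 to 10.6 in αGlu. The 6 neutrophil markers summed to 106 to 159 CPM in Ctr and 186 to 609 in αGlu, almost all of it Csf3r, and Ly6g was at 0 throughout. The 4 markers of dividing cells summed to 37.4 to 109 CPM in Ctr and 25.2 to 158 in αGlu, where Mki67 made up most of the sum in αGlu 2 and αGlu 3, with 108 and 138 CPM against 13.2 to 49.2 in Ctr. Top2a was lower in every αGlu library, at 5.54 to 6.88 CPM against 13.8 to 36.9 in Ctr. Markers of lymphocytes, dendritic cells, fibroblasts, mast cells and erythroid cells each summed to under 7 CPM in every library. The part of these differences in the results below was not tested.

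The 80 genes differed widely in level. In TPM, a unit that corrects for gene length and library size, their means over the 6 libraries ran from 19.8 to 2600, a 131-fold span, with a median of 433. A total of 34 genes stood above 500 TPM and only 3 below 100. Rplp1, an acidic protein of the stalk that recruits translation factors, was the most abundant at 2687 ± 250 TPM in Ctr and 2513 ± 604 in αGlu (SD, n = 3). Rpl19 followed at 1593 ± 3.54 and 1850 ± 129 TPM, and Rps3a1 at 1527 ± 103 and 1695 ± 89.8 TPM. Both proteins are core components, of the large and the small subunit respectively. The lowest levels were those of Rps15a at 92.0 ± 2.62 and 99.6 ± 6.22 TPM, Rpl7l1 at 78.0 ± 2.10 and 90.1 ± 9.81 TPM, and Rpl22l1 at 23.2 ± 6.58 and 16.3 ± 3.64 TPM. Rpl7l1 and Rpl22l1 are paralogs of Rpl7 and Rpl22. TPM depends on the exon length of the gene model, which ran from 408 bases for Rpl36 to 6687 for Rps15a, so a long model lowers the TPM of a gene with a short transcript. Small-subunit genes had a median of 464 TPM and large-subunit genes one of 419.

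**Figure D1:**
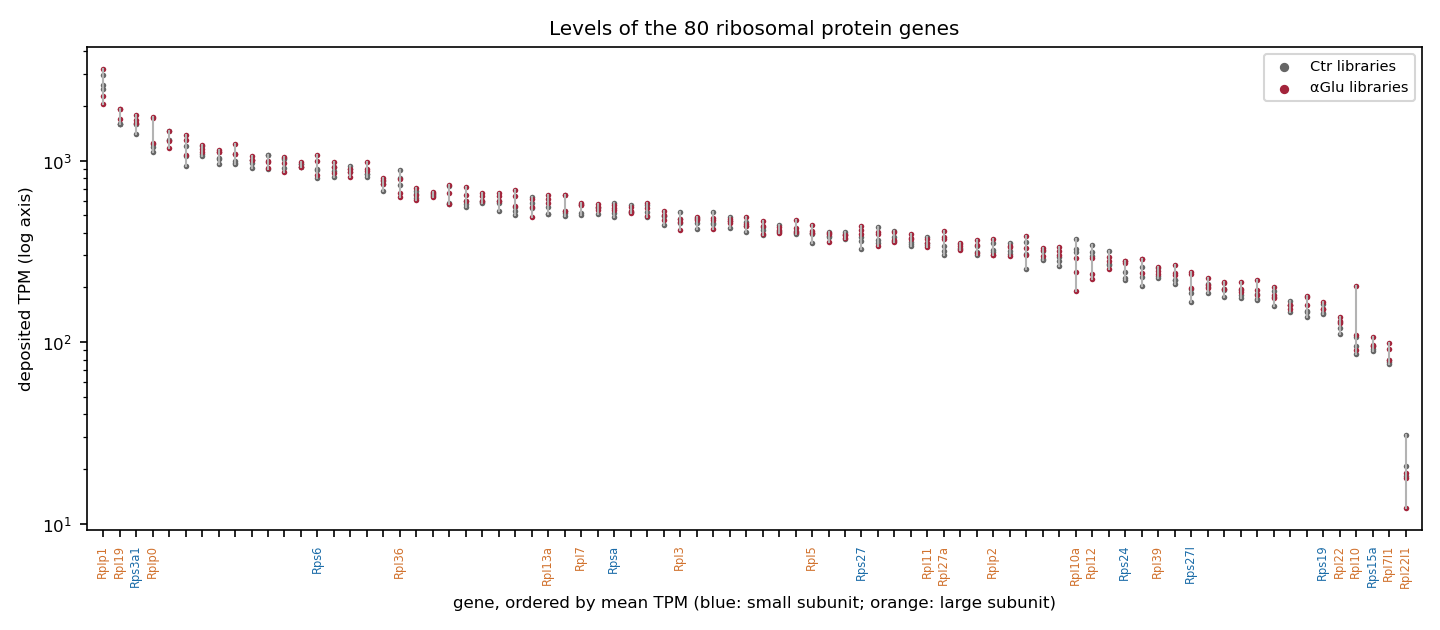
Deposited TPM of each ribosomal protein gene on a log axis, with 1 point per library (grey for Ctr, red for αGlu), ordered by the mean over the 6 libraries, with the genes chosen for description named. The levels span from 2600 TPM for Rplp1 to 19.8 for Rpl22l1, and for most genes the libraries lie close together compared with the distance between genes, with Rpl10 and Rpl22l1 the most spread.

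As a group the ribosomal protein genes were at nearly the same level with and without the antisense. They took 2.40%, 2.17% and 2.30% of all counts in Ctr 1, 2 and 3, and 2.36%, 2.38% and 2.55% in αGlu 1, 2 and 3. The Ctr and αGlu values overlapped, with means of 2.29 ± 0.117% and 2.43 ± 0.102% (SD, n = 3). In TPM the shares were 4.32 ± 0.21% and 4.55 ± 0.17%. In these bulk libraries, fewer cells of a type and less RNA per cell cannot be told apart. Per gene, 41 had a positive and 39 a negative log2 fold change (αGlu over Ctr), with a median of 0.002 beside 0.016 over all genes tested.

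No ribosomal protein gene was called by edgeR's quasi-likelihood test at an adjusted p under 0.1, where the background over all 11933 genes was also 0%. The smallest adjusted p of the 80 genes was 0.162 with this test, for Rpl10a. At an unadjusted p under 0.05, 2 of the 80 genes passed, both with a negative fold change, while 24.7% of all genes tested did. An absolute log2 fold change over 0.25 was found for 6 of the 80 genes, or 7.5%, beside 48.4% of all genes. The median absolute log2 fold change was 0.093 over the ribosomal protein genes, 0.24 over all genes tested and also 0.24 over 1855 other genes at 100 CPM or more. Replicates of these genes lay close together, with a median SD on the log2 scale of 0.0682 in Ctr and 0.0886 in αGlu. It was 0.136 and 0.197 over all genes, and 0.109 and 0.204 over the 1855 other genes at 100 CPM or more.

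**Figure D2:**
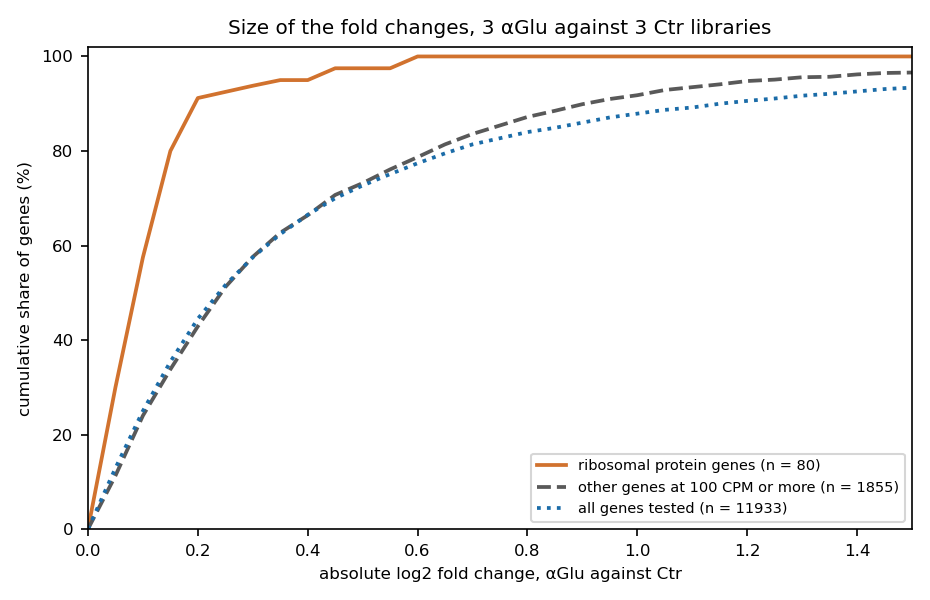
Cumulative share of genes (%) with an absolute log2 fold change at or below the value on the horizontal axis, for the 80 ribosomal protein genes (solid line), 1855 other genes at 100 CPM or more (dashed) and all 11933 genes tested (dotted). A log2 fold change of 0.25 or less was reached by 92.5% of the ribosomal protein genes, 51.2% of the other abundant genes and 51.6% of all genes.

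The 3 αGlu libraries all lay above the 3 Ctr libraries for 10 ribosomal protein genes, where the background was 14.2%, and all below for 8, where it was 15.9%. The genes above were Rplp0, Rpl13a, Rpl17, Rpl19, Rpl27a, Rps9, Rps20, Rps23, Rps24 and Rps27. Those below included Rpl3, Rpl10a, Rpl11, Rpl12, Rpl22l1, Rpl29 and Rpl37a. Both counts, out of 80 genes, lay under the background. This split depended on the scaling, since on deposited TPM 22 genes were above and 2 below, and on deposited RPKM (reads scaled by exon length and depth) 11 were above and 2 below. The 2 genes below on the TPM scale were Rpl10a and Rpl12. With CPM, leaving a library out can only keep or raise these counts. Without αGlu 1 they were 17 above and 26 below, where the backgrounds were 33.6% and 32.2%. They were 18 and 8 without αGlu 2, 10 and 15 without Ctr 2, and 18 and 12 without Ctr 3. For the other libraries left out, and for TPM and RPKM, no share over all genes was set beside the counts.

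The medians of the subunits lay close together. Small-subunit genes had log2 fold changes with a median of -0.0064 and a range of -0.15 to 0.21. The large-subunit genes had a median of 0.002 but a wider range of -0.59 to 0.41, and all 6 genes past 0.25 in absolute size belonged to them. The log2 ratio of summed small-subunit to summed large-subunit TPM stood at -0.61 ± 0.0247 over the Ctr libraries and at -0.59 ± 0.0186 over the αGlu libraries (SD, n = 3).

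**Figure D3:**
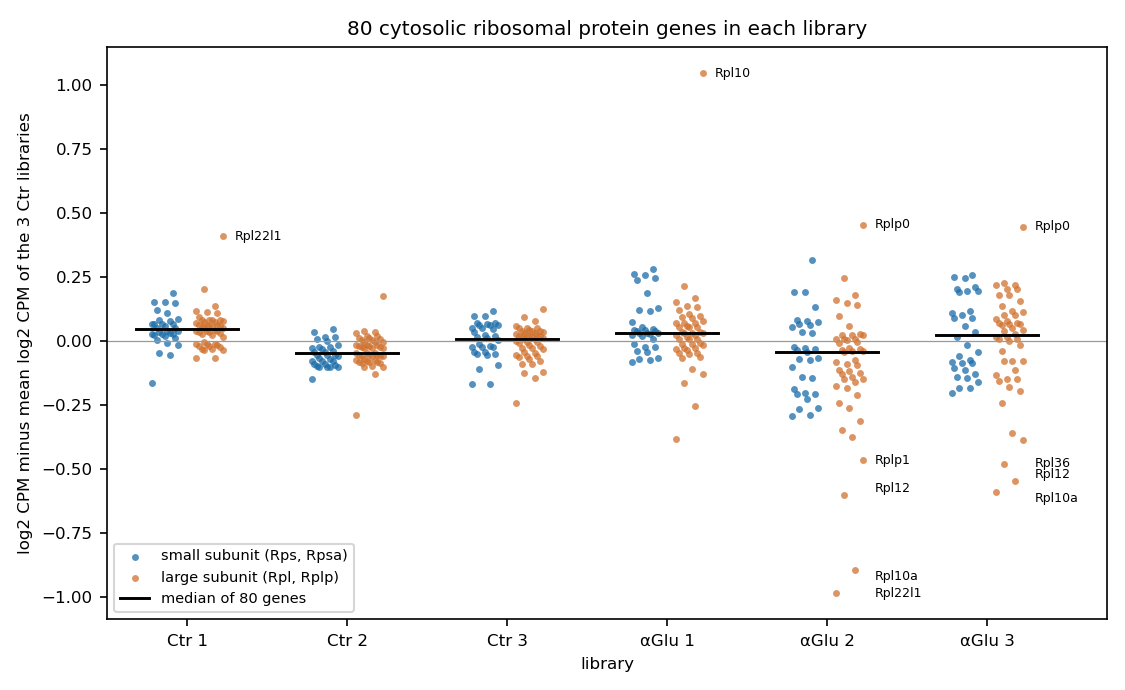
Log2 CPM of each of the 80 genes minus its mean over the 3 Ctr libraries, in each library, with small-subunit genes in blue, large-subunit genes in orange and the median as a bar. The medians lie between -0.048 and 0.047 in all 6 libraries, and the named genes stand more than 0.4 from the Ctr mean: Rpl22l1 in Ctr 1, Rpl10 in αGlu 1, and Rplp0, Rplp1, Rpl12, Rpl10a, Rpl22l1 or Rpl36 in αGlu 2 and 3.

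Although the median stayed put, single genes were more scattered around it in αGlu 2 and αGlu 3. In αGlu 1 the spread included the outlying Rpl10. The SD over the 80 genes of the log2 difference from the Ctr mean was 0.155, 0.218 and 0.185 in αGlu 1, 2 and 3. For each Ctr library against the mean of the other Ctr libraries it was 0.109, 0.0848 and 0.103. No such SD over all genes was computed, so the wider scatter is not shown to be particular to these genes. Rpl10 was at 135 CPM in αGlu 1 against 59.1 to 73.6 in the Ctr libraries, and the SD of αGlu 1 is not given without that gene. αGlu 1 was above the Ctr range for 36.2% of the 80 genes and below it for 12.5%, beside 28.0% and 29.4% of all genes tested. The shares were 22.5% and 48.8% for αGlu 2, beside 39.7% and 37.3% of all genes, and 41.2% and 33.8% for αGlu 3, beside 39.1% and 37.3%. αGlu 1 lay inside the Ctr range for 41 of the 80 genes.

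The lowest fold changes belonged to large-subunit genes. In the GENCODE M21 annotation of GRCm38, Rpl10a lies at chr17:28328471-28331033, Rpl12 at chr2:32961559-32965345 and Rpl22l1 at chr3:28805436-28807424, all on the plus strand. Rpl10a, a core protein of the large subunit that is present on only part of the ribosomes in some cells, was at 292, 255 and 266 CPM in Ctr 1, 2 and 3 and at 227, 146 and 180 CPM in αGlu 1, 2 and 3. All αGlu values lay below all Ctr values, and αGlu 1 was the αGlu library nearest to Ctr. The log2 fold change was -0.56 ± 0.18 (SE) with an adjusted p of 0.162 in edgeR's quasi-likelihood test. Rpl12, which forms the base of the stalk, was at 399, 359 and 375 CPM in the Ctr libraries and 337, 249 and 258 CPM in the αGlu libraries. Here too the groups did not overlap, and αGlu 1 again lay nearest to Ctr. The log2 fold change was -0.42 ± 0.15 with an adjusted p of 0.174 in the same test.

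Rpl22l1, the paralog of Rpl22 and the least abundant of the 80 genes, was at 19.9, 12.3 and 13.7 CPM in the Ctr libraries and 11.5, 7.56 and 11.4 CPM in the αGlu libraries. These values rest on 200 to 437 counts per library, and Ctr 1 alone was high in its group. The log2 fold change was -0.59 ± 0.25 with an adjusted p of 0.211, and -0.35 without Ctr 1. Rpl36 was at 111, 103 and 93.8 CPM in the Ctr libraries and 97.9, 78.9 and 73.4 CPM in the αGlu libraries, and the log2 fold change was -0.30 ± 0.13 with an adjusted p of 0.224. The groups overlapped in that αGlu 1 exceeded Ctr 3. Rpl3, a core protein that reaches towards the peptidyl transferase centre, did not overlap between groups but differed by only -0.18 ± 0.11 (adjusted p 0.332).

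**Figure D4:**
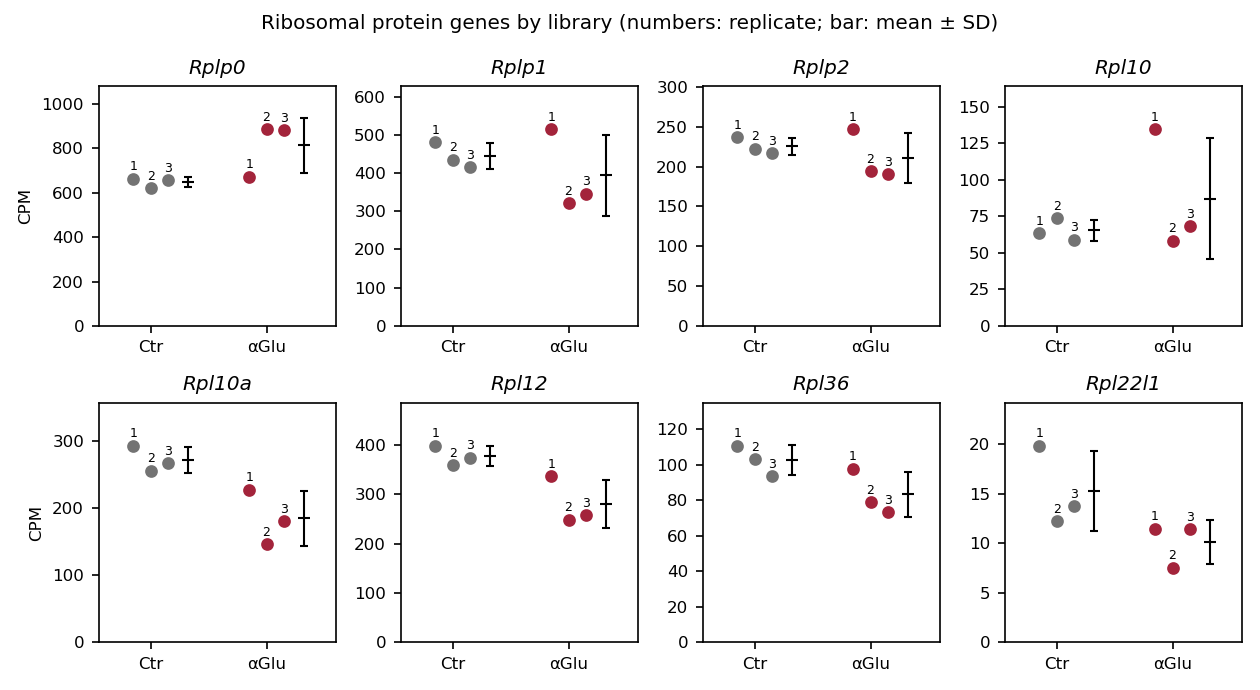
CPM of 8 large-subunit genes in each library, with the replicate number above each point and the mean ± SD of the 3 libraries as a bar. Rplp0, Rpl10a, Rpl12 and Rpl22l1 do not overlap between groups, αGlu 1 stands nearer to Ctr than αGlu 2 and αGlu 3 for Rplp0, Rpl10a, Rpl12 and Rpl36, and for Rpl10 only αGlu 1 lies above Ctr.

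The stalk is a complex of Rplp0 with Rplp1 and Rplp2 on a base formed with Rpl12. In αGlu 2 and αGlu 3 the messenger RNA of Rplp0 was above, and those of Rplp1 and Rplp2 below, every Ctr library, but none of the 3 genes passed the test with all 6 libraries. Rplp0 (chr5:115559467-115563727), the scaffold of the stalk, was at 664, 621 and 656 CPM in the Ctr libraries and 672, 886 and 881 CPM in the αGlu libraries. The groups did not overlap, though αGlu 1 exceeded Ctr 1 by little. The log2 fold change was 0.33 ± 0.15 with an adjusted p of 0.230. Rplp1 was at 482, 435 and 416 CPM in the Ctr libraries and 515, 321 and 346 CPM in the αGlu libraries, so that αGlu 1 was the highest and αGlu 2 and 3 the lowest of the 6 libraries. Its log2 fold change was -0.17 ± 0.20 (adjusted p 0.598). Rplp2 had the same order, with 237, 222 and 217 CPM in Ctr and 247, 195 and 191 CPM in αGlu, and the log2 fold change was -0.10 ± 0.13 (adjusted p 0.643).

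The ratio of Rplp0 to Rplp1 in TPM was 0.415, 0.429 and 0.474 in Ctr, 0.393 in αGlu 1, and 0.83 and 0.766 in αGlu 2 and αGlu 3. The ratio of Rplp0 to Rplp2 was 3.50, 3.49 and 3.78 in Ctr, 3.40 in αGlu 1, and 5.69 and 5.77 in αGlu 2 and αGlu 3. In both ratios αGlu 1 was the lowest of the 6 libraries and αGlu 2 and αGlu 3 the highest. Reads of the stalk genes can also fit other genes, since 41.8% of the 50-base words of Rplp0, 60.0% of those of Rplp1 and 30.7% of those of Rplp2 also occur in another gene's transcripts.

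Among the highest fold changes was Rpl27a, a core protein of the large subunit. It was at 306, 282 and 294 CPM in the Ctr libraries and 331, 329 and 344 CPM in the αGlu libraries, without overlap, and had a log2 fold change of 0.18 ± 0.090 (adjusted p 0.251). Rps24, a small-subunit protein mutated in some cases of Diamond-Blackfan anaemia, was at 459, 463 and 510 CPM in the Ctr libraries and 562, 545 and 516 CPM in the αGlu libraries. The groups were separate by a small margin between Ctr 3 and αGlu 3. The log2 fold change was 0.18 ± 0.11 (adjusted p 0.315).

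Rpl10 had the highest fold change, and a single library set it. Rpl10 (chrX:74270812-74273135), which joins the large subunit last and completes its active site, was at 63.7, 73.6 and 59.1 CPM in the Ctr libraries and 135, 58.3 and 68.5 CPM in the αGlu libraries. Only αGlu 1 lay outside the Ctr range on the high side, and αGlu 2 lay below every Ctr library. The log2 fold change was 0.41 ± 0.33 (adjusted p 0.434) with all libraries and -0.052 without αGlu 1. Its count cannot be fully separated from that of Rpl10-ps3, a row that the table lists as protein coding and that holds 85.4% of the 50-base words of Rpl10. Rpl10-ps3 had 18072, 18465 and 18638 counts in Ctr and 13233, 19668 and 17167 in αGlu, against 1273 to 1761 and 1852 to 2349 counts for Rpl10. Rpl10 made up 7.20%, 8.71% and 6.39% of the counts of the pair in Ctr and 15.1%, 8.61% and 9.81% in αGlu. With the reads of both rows added, the log2 fold change was -0.23 (adjusted p 0.367).

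The paralogs with an l in their symbol were compared with the genes they are named after. Rps27l, a p53-induced paralog of Rps27, was at 44.3, 51.2 and 53.8 CPM in the Ctr libraries and 52.3, 61.8 and 59.1 CPM in the αGlu libraries. αGlu 1 lay within the Ctr range and the other αGlu libraries above it, and the log2 fold change was 0.21 ± 0.11 (adjusted p 0.258). Rps27 was at 128, 114 and 126 CPM in the Ctr libraries and 147, 128 and 132 CPM in the αGlu libraries, and the log2 fold change was 0.14 ± 0.093 (adjusted p 0.353), with 0.078 without αGlu 1 and 0.091 without Ctr 2. Its groups touched, since Ctr 1 and αGlu 2 were equal to 4 digits. The TPM ratio of Rps27 to Rps27l stood at 1.95 ± 0.274 over the Ctr libraries and at 1.86 ± 0.302 over the αGlu libraries (SD, n = 3), with overlapping libraries. Of the words of Rps27, 63.1% also occur in Rps27rt, a retrocopy at 3.22 to 10.9 CPM.

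Rpl22 itself was at 108 to 122 CPM in Ctr and 115 to 123 CPM in αGlu, and the log2 fold change was 0.051 ± 0.082 (adjusted p 0.706). The TPM ratio of Rpl22 to Rpl22l1 was 4.21, 6.02 and 5.80 in Ctr and 7.31, 10.4 and 7.23 in αGlu, without overlap. Rpl7l1 was at 86.3 to 93.7 CPM in Ctr and 89.6 to 105 CPM in αGlu (log2 fold change 0.12 ± 0.089, adjusted p 0.395), and Rpl7 at 451 to 515 CPM in Ctr and 475 to 492 CPM in αGlu (0.025 ± 0.11, adjusted p 0.891). Rpl39 was at 108 to 119 CPM in Ctr and 106 to 115 CPM in αGlu, and the log2 fold change was -0.021 ± 0.079 (adjusted p 0.876). The 3 genes below the count minimum were all such paralogs, known mainly from muscle or testis. Rpl10l had 0 counts in every library, which allows up to 3 counts per library, and Rpl3l had 0 to 3 counts. Rpl39l had 4, 3 and 5 counts in Ctr and 0, 8 and 21 in αGlu. The member nearest above the minimum was Rpl22l1.

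Genes with known roles beyond the ribosome had small fold changes. Rps6, the target of S6 kinases, was at 461, 429 and 469 CPM in the Ctr libraries and 427, 496 and 521 CPM in the αGlu libraries. αGlu 1 was the lowest library and αGlu 2 and 3 were the highest, and the log2 fold change was 0.088 ± 0.12 (adjusted p 0.652). Rpl5 and Rpl11, which bind Mdm2 when ribosome assembly is disturbed, had log2 fold changes of 0.052 ± 0.11 (adjusted p 0.765) and -0.11 ± 0.088 (adjusted p 0.453). Rpl11 did not overlap between groups, with 308 to 331 CPM in Ctr and 292 to 302 in αGlu. Rps19, the gene most often mutated in Diamond-Blackfan anaemia, was at 224 to 246 CPM in Ctr and 216 to 252 CPM in αGlu (-0.017 ± 0.10, adjusted p 0.925). Rpsa, also known as the laminin receptor, was at 517 to 603 CPM in Ctr and 545 to 549 CPM in αGlu (-0.024 ± 0.11, adjusted p 0.898). Rpl13a, released from the ribosome of interferon-treated myeloid cells to silence inflammatory messengers, was at 382, 362 and 359 CPM in the Ctr libraries and 396, 406 and 416 CPM in the αGlu libraries. Its groups did not overlap, and its log2 fold change was 0.14 ± 0.093 (adjusted p 0.356).

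With αGlu 1 left out, which was done after its position was known, 13 of the 80 genes passed at an adjusted p under 0.1. Of these, 4 were higher, where 23.5% of 12340 genes were called, and 9 were lower, where 25.6% were. Those that rose were Rplp0, by 0.45 ± 0.085 on the log2 scale (edgeR adjusted p 0.008), Rps27l by 0.27 ± 0.098, Rpl24 by 0.22 ± 0.078 and Rps9 by 0.21 ± 0.085. The genes that fell furthest were Rpl10a with a log2 fold change of -0.74 ± 0.12 (adjusted p 0.00472), Rpl22l1 with -0.69 ± 0.26 (adjusted p 0.0816), Rpl12 with -0.58 ± 0.090 (adjusted p 0.00353), Rpl36 with -0.43 ± 0.097 (adjusted p 0.0143) and Rplp1 with -0.42 ± 0.10 (adjusted p 0.0191). Rpl31, Rps15, Rplp2 and Rpl32 fell by at most 0.28. The median over the 80 genes was -0.022 in that fit. αGlu 2 and αGlu 3 both lay above the 3 Ctr libraries for 17 of the 80 genes, where the background was 33.6%, and both below for 26, where it was 32.2%.

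DESeq2 on all 6 libraries called 3 of the 80 genes, beside 17.6% of all genes. Rpl10a had a log2 fold change of -0.56 and an adjusted p of 0.0515 in this test, Rpl12 one of -0.43 with an adjusted p of 0.0684, and Rpl27a one of 0.18 with an adjusted p of 0.0857. Neither these 3 genes nor any other of the 80 passed with limma-voom or with the other scalings in edgeR.

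The start sites of the genes were read for the TOP tract, defined here as a C followed by at least 5 C or T, beginning within 10 bases of the start that RefSeq annotates (GRCm38.p6, transcribed strand only). A promoter was found for 60 of the 80 genes, and 33 of these (55.0%) held a tract in at least 1 promoter, beside 23.8% of 9352 other genes with at least 10 counts in 3 libraries and 21.9% of all 27025 genes with a promoter in the table. The following windows cover 15 bases before the annotated start and 15 from it onward, with the tract in capitals. They are shown because genes with fold changes of either sign carried a tract by this definition. Among them were Rpl10a, Rpl12 and Rpl22l1, the 3 lowest, and Rpl27a, Rps24 and Rpl13a with positive values. The tract of Rpl10a begins at -9 relative to the annotated start, is 7 bases long and ends before that start. A messenger RNA beginning at the annotated base would not contain it. The tracts of Rpl12 and Rpl13a begin at 2 and that of Rpl22l1 at 3 relative to the annotated start. Those of Rpl27a and Rps24 begin at -4 and -2. None of the tracts shown begins at the annotated base itself. No tract was found for Rpl10 and Rplp0, the 2 highest. Rps27l, at rank 3 from the top and not shown, carried one of 7 bases at -10, which also ends before the annotated start.
Rpl10a, chr17:28328456-28328485, plus strand: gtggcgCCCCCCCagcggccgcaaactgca
Rpl12, chr2:32961697-32961726, plus strand: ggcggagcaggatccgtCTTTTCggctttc
Rpl22l1, chr3:28805493-28805522, plus strand: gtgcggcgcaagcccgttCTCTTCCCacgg
Rpl27a, chr7:109519180-109519209, plus strand: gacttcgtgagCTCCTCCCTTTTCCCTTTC
Rps24, chr14:24490663-24490692, plus strand: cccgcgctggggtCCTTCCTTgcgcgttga
Rpl13a, chr7:45128731-45128760, minus strand: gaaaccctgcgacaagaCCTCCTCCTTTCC
Rpl10, chrX:74270801-74270830, plus strand: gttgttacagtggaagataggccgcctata
Rplp0, chr5:115559452-115559481, plus strand: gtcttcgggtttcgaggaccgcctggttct

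The 33 genes with a tract had log2 fold changes with a median of -0.0059, and the 27 genes without one a median of 0.010. The fold change was positive for 16 and 17 of them. All αGlu libraries lay above all Ctr libraries for 7 and 1, where the background was 14.2%, and below for 3 and 2, where it was 15.9%. The part of the tract in these values was not tested. Rpl10a, Rps24 and Rps27l each had a further annotated start without a tract. A missing match says only that these letters are not in the window around the annotated start.

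Other properties of the genes tracked their fold changes weakly. The 80 genes are not independent replicates. Across them, the Pearson r of the log2 fold change was 0.094 with log2 exon length and -0.209 with GC content (Spearman's rho 0.115 and -0.308). It was 0.092 with log2 mean TPM (rho -0.09) and -0.182 with the share of 50-base words found in another gene (rho -0.171). Over all genes tested, r was -0.057 with exon length, -0.047 with GC content and 0.076 with mean TPM. The share of words matters for this family because it has many processed copies in the genome. At least 50% of the words were shared with another gene for 29 of the 80 genes, and under 10% for 8, and the table holds no row with the biotype processed_pseudogene. Over the 51 genes with most of their words unique, the median log2 fold change was 0.0041 and the range -0.42 to 0.33. For 10 genes more than 25% of the words lay in another gene of the deposited table, among them Rpl35, which shares 37.6% with Gm2000. Among the genes that departed most, the shared portion was 77.5% for Rpl10a, 49.0% for Rpl12, 81.1% for Rpl36 and 57.3% for Rpl22l1.

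The other genes of ribosome production were described by list. Among the ribosomal proteins whose symbols the rule does not reach, Rps27rt had a log2 fold change of 0.67 ± 0.39 (adjusted p 0.304), and Fau, Rack1 and Rpl36al lay within 0.1 of 0. Of 16 translation factors and other genes with known TOP messengers, 5 were higher and 11 lower, with a median of -0.069. Hnrnpa1, a splicing and RNA-transport factor, stood alone with 131, 123 and 122 CPM in Ctr and 141, 217 and 243 CPM in αGlu, and the log2 fold change was 0.68 ± 0.21 (adjusted p 0.160). Eif3k, a subunit of initiation factor 3, had one of -0.22 ± 0.092 (adjusted p 0.208).

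Of 11 genes for nucleolar proteins and for the box C/D and H/ACA particles, which guide modification of ribosomal RNA, 2 were higher and 9 lower, with a median of -0.11. Those higher were the nucleolar proteins Ncl, at 0.037, and Npm1, at 0.062, and no particle gene had a positive log2 fold change. Dkc1, the pseudouridine synthase of the H/ACA particle, was at 17.5, 16.3 and 17.1 CPM in the Ctr libraries and 11.3, 10.8 and 12.03 CPM in the αGlu libraries. The groups were well apart and αGlu 1 stood with the other αGlu libraries, and the log2 fold change was -0.58 ± 0.089 (adjusted p 0.149). Nop10 of the same particle had one of -0.40 ± 0.14 (adjusted p 0.180). The 23 genes of large-subunit assembly had a median of -0.027 with 11 higher and 12 lower, and the smallest p-values were those of Nop16 at -0.43 ± 0.090 (adjusted p 0.152) and Gnl3 at -0.22 ± 0.066 (adjusted p 0.160). The 28 genes of small-subunit assembly had a median of 0.052 with 17 higher and 11 lower, led by Nop14 at 0.31 ± 0.079 (adjusted p 0.156) and Heatr1 at 0.60 ± 0.16 (adjusted p 0.157).

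Of 10 genes of RNA polymerase I and its factors, 5 were higher and 5 lower, with a median of -0.021. Polr1c, a subunit shared with polymerase III, had a log2 fold change of 0.34 ± 0.13 (adjusted p 0.194), and Polr1a, the largest subunit, one of -0.31 ± 0.13 (adjusted p 0.205). Among 7 chaperones that escort single ribosomal proteins, Grwd1, which binds Rpl3, was at 16.4, 15.2 and 16.2 CPM in the Ctr libraries and 10.8, 11.7 and 12.1 CPM in the αGlu libraries (-0.46 ± 0.091, adjusted p 0.149). Bccip, which binds Rpl23, had a log2 fold change of 0.25 ± 0.13 (adjusted p 0.274). Among 12 signalling genes the median was -0.11. Myc was at 30.2, 23.03 and 26.7 CPM in Ctr, 12.8 in αGlu 1, and 1.79 and 2.31 in αGlu 2 and αGlu 3. It was lower in every αGlu library, and the log2 fold change was -2.28 ± 0.77 (adjusted p 0.170). Rps6kb2, a kinase of Rps6, had a log2 fold change of 0.35 ± 0.098 (adjusted p 0.159). No gene of these lists was called by edgeR's quasi-likelihood test in the fit of all 6 libraries.

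Other fits did call genes of these lists. DESeq2 on all 6 libraries, which called 17.6% of all genes, gave an adjusted p of 0.000268 for Dkc1, 0.00937 for Nop16, 0.0286 for Heatr1 and 0.0414 for Hnrnpa1. It called 3 of the 28 genes of small-subunit assembly, 3 of the 23 of large-subunit assembly, 2 of the 12 signalling genes and none of the 10 of RNA polymerase I. Without αGlu 1, edgeR called 23.5% of all genes as higher and 25.6% as lower. In that fit 9 genes of small-subunit assembly were higher and 1 lower, and 3 of large-subunit assembly were higher and 4 lower. Of the signalling genes 3 were higher and 6 lower, of the RNA polymerase I genes 3 and 2, of the translation factors 2 and 3, of the chaperones 1 and 1, and of the nucleolar and particle genes 0 and 3.

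The 78 mitochondrial ribosomal protein genes, which build a separate ribosome inside mitochondria, had log2 fold changes with a median of 0.12, with 58 higher and 20 lower. All αGlu libraries lay above all Ctr libraries for 22 of them, where the background was 14.2%, and below for 3, where it was 15.9%. Before adjustment, 16 had a p under 0.05 with a higher level and 1 with a lower level, beside 1520 and 1423 of all 11933 genes. By edgeR's test 0 were called with all libraries, and without αGlu 1 the test called 32 higher and 4 lower, beside the 23.5% and 25.6% of all genes given above. DESeq2 with all libraries called 7 higher and 1 lower, beside 1031 higher and 1075 lower of all 11933 genes. Mrpl40 was at 23.9, 24.6 and 26.03 CPM in the Ctr libraries and 29.5, 30.8 and 30.0 CPM in the αGlu libraries, and the log2 fold change was 0.28 ± 0.070 (adjusted p 0.156). Mrps6 went the other way, with 26.5, 26.8 and 19.4 CPM in Ctr and 14.9, 11.7 and 12.7 CPM in αGlu (-0.89 ± 0.16, adjusted p 0.149). Beside these, the cytosolic set of 80 genes had 10 above, 8 below and a median of 0.002, and the difference between the sets was not tested.

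**Figure D5:**
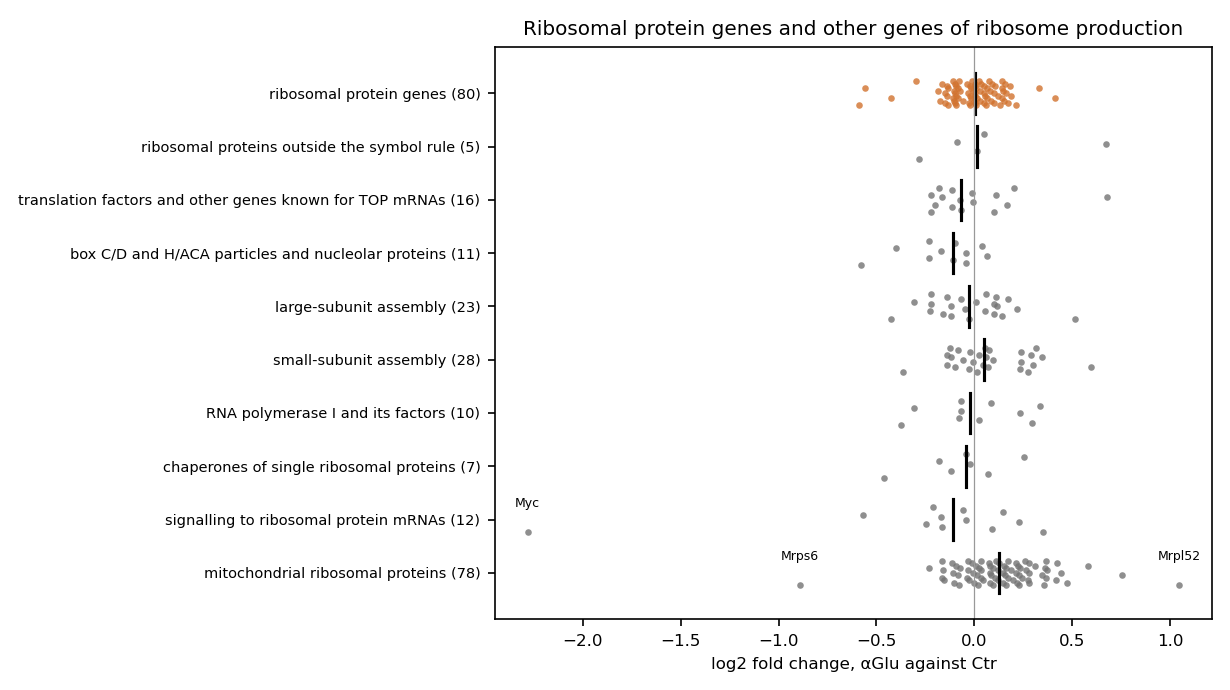
Log2 fold change (αGlu over Ctr) of each gene tested, for the 80 cytosolic ribosomal protein genes (orange) and the other lists (grey), with the median of each list as a bar and the number of genes in brackets. The cytosolic genes cluster around a median of 0.002, the mitochondrial ribosomal protein genes around 0.12, and Myc is the farthest gene of all lists at -2.28.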

How the data were processed

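RNA of the 6 libraries was sequenced with a stranded mRNA kit, and the authors used the RNA-seq Analysis Portal of QIAGEN to obtain their table. The labels name GRCm38. Not given in the sources used here are the aligner, the annotation and how reads matching several genes were counted. The deposited counts are unnormalized whole numbers per gene. The deposited RPKM values divide them by depth and exon length. In each library the deposited TPM values have the same sum. The 6 columns of CPM made by the authors were not used.

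CPM values were computed from the deposited counts with trimmed mean of M-values (TMM) factors of 0.951 to 1.07. After filterByExpr (edgeR 4.0.16, R 4.3.3, counts of at least 10), 11933 genes were left, all 80 members among them. Group effects came from edgeR's quasi-likelihood test, fitted to all libraries with no covariate, two-sided and with Benjamini-Hochberg adjustment over the 11933 genes, and an adjusted p under 0.1 counted as a call, whatever the fold. Every adjusted p is from this fit unless another tool is named. The scripts were tested on simulated data. These had a lower dispersion than the 0.069 of the 6 libraries and no outlying library, so the test does not cover that setting.

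Alternatives were DESeq2 1.42.0, limma-voom (limma 3.58.1), other scalings and filters, GC and length offsets (loess, span 0.3), the replicate number as a block and each library left out. Members, lists and tests were chosen with earlier results of these data known. Named are the 5 highest and 5 lowest fold changes (mean log2 CPM of at least 3), the 3 stalk genes, the paralogs with an l in the symbol and their namesakes, the 3 highest and 3 lowest levels, the 5 smallest p-values, the 2 smallest of each other list, and Rpsa, Rps6, Rpl5, Rpl11, Rps19 and Rpl13a. Results for some genes are not reported here. Other genes were named after their values were seen, as were the counts without αGlu 1 and the merging of Rpl10 with Rpl10-ps3.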

Additional observations from a re-analysis of the deposited data

Results flagged for a closer look

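Rows named as copies of ribosomal protein genes lie outside the comparisons of the 80 genes, and 2 of 8 such rows held more than 3 counts in every library. Rpl10-ps3, a row on chromosome 9, had a mean of 744 CPM over the 6 libraries, above the mean of Rpl10 itself in both groups, and a log2 fold change of -0.29 ± 0.14 (edgeR adjusted p 0.236). Rpl9-ps6, on chromosome 19, had a mean of 3.12 CPM and ranged from 3.67 to 4.05 CPM in Ctr, with 0.229, 3.97 and 2.86 CPM in αGlu 1, 2 and 3.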

How the results depend on the processing

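Of 80 genes, 0 passed with limma-voom, RLE, upper-quartile or TMM factors computed without these genes, library size alone, other filters, GC and length offsets or a stricter threshold, 3 passed with DESeq2, and between 0 and 13 when each library was left out, the highest without αGlu 1. The median log2 fold change moved to 0.0863 with library size alone, where that of all genes was 0.10, and stayed between -0.039 and 0.033 without single libraries. With the replicate number as a block, 0 of the 80 genes and 17 of all genes were called and the median was 0.0029, and with GC and length offsets added the counts were 0 and 27. No label says that the numbers pair libraries. For another measurement after the same transfection, the study compared αGlu with Ctr by a paired t test. Over all genes, each library's deviations correlated best with those of its own number. The r was 0.0764, 0.0646 and 0.154, against -0.112 to 0.0459 for other numbers, which is a hint from the data. Over the 80 genes this did not hold, since Ctr 3 correlated with αGlu 2 at 0.532 and with αGlu 3 at 0.0903, and Ctr 2 with αGlu 1 at 0.110 and with αGlu 2 at 0.0596.

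Genes wholly above Ctr numbered 22 on TPM and 10 to 18 without single libraries, with 18 without Ctr 3 or αGlu 2 and 17 without αGlu 1. Genes wholly below numbered 2 with library size alone, 2 on TPM, 2 on RPKM and 8 to 26 without single libraries, with 26 without αGlu 1 and 15 without Ctr 2. Leaving a library out can only keep or raise such counts. Without αGlu 1 the shares over all 11933 genes were 33.6% above and 32.2% below. For the other settings of this paragraph no share over all genes was computed. Their counts therefore cannot be told from the background. The cause of the shifts between scalings was not tested. The subunit difference in median log2 fold change, -0.0084 in the main comparison, was 0.0347 for means, 0.0188 for summed TPM and -0.0147 to 0.0252 without single libraries.

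Signs changed for Rpl10 and for some genes near 0. Rpl10 was at -0.2259 with the reads of Rpl10-ps3 added and -0.0515 to 0.6358 without single libraries. With library size alone Rpl39 was at 0.0622, Rps19 at 0.0631 and Rpsa at 0.0591. Rpl7 was at -0.0197 with GC and length trends removed and -0.0201 with the block as well. Without single libraries, Rpl39 ran from -0.0541 to 0.0309, Rps19 from -0.0935 to 0.0329, Rpsa from -0.0778 to 0.0475, Rpl7 from -0.0078 to 0.0867, Rpl5 from -0.0016 to 0.0883 and Rpl22 from -0.0005 to 0.102. For the 26 named members, 416 of 443 values under an alternative kept both sign and side of the threshold.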
